A study of Mus musculus with 6 samples.

Results

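The 10 genes described here encode C-type lectin receptors of mouse alveolar macrophages (AMs), the macrophages of the lung airspaces. They were taken by name (Clec4d, Clec4e, Clec4n, Clec7a, Clec4a1, Clec4a2, Clec4a3, Clec12a, Mrc1 and Ly75) from the 24341 genes of the deposited expression table. The study compared AMs of CD44+/+ and CD44-/- mice, which differ in the receptor for the matrix sugar hyaluronan. Both groups were naïve female C57BL/6 mice of 6 to 10 weeks, and no other allele or treatment was named for either. Cells were washed out of the lung in phosphate-buffered saline with EDTA, red cells were lysed, total RNA was extracted, and its mRNA was sequenced from 3 pools of mice for each genotype. The p-values below therefore measure the spread between pools. The pools did not all hold the same number of mice. The study's methods list the largest pool first but give no replicate numbers beside the sizes. The labels name no promoter or Cre that would limit the loss of CD44 to AMs. Ly75 was selected on its difference in FPKM between the genotypes in these samples, and the other 9 were named beside it as members of the receptor family with these values known. The values of Ly75 are therefore given as a description with no test.

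C-type lectin receptors bind sugars, lipids and other ligands on microbes and damaged cells through a shared fold. Some activate the cell through the kinase Syk, either by a motif in their own tail or through the adaptor FcRγ (Fcer1g). Others carry inhibitory motifs that recruit phosphatases such as SHP-1 (Ptpn6), and the mannose receptor family carries cargo into the cell. AMs, which meet inhaled fungi and bacteria first, are known for high levels of Dectin-1 and the mannose receptor.

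Values are FPKM, sequenced fragments scaled to the length of the transcript and to the mapped total of the sample, which allow levels of different genes to be set side by side. All 10 genes averaged 0.5 FPKM or more, the filter that 10800 genes passed in all. Sums of FPKM over all genes lay between 487911 and 504192 in the 6 samples, and the depth behind each value is unknown because read numbers were not analysed here. As a check of the genotype, Cd44 was at 540, 535 and 527 FPKM in the CD44+/+ samples and at 54.7, 54.5 and 51.4 FPKM in the CD44-/- samples. Since RNA of many cells was sequenced together, fewer cells of a type and less RNA per cell cannot be told apart.

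The levels spanned a wide range. Clec7a had the highest mean in CD44+/+ AMs and stood at the 99.6th percentile of all genes tested by its mean over the 6 samples. Clec4n and Mrc1 followed, and their ranges overlapped in both genotypes, so that neither stood above the other beyond the spread. Clec4a3 came next, then Ly75, Clec4a2, Clec4e, Clec12a and Clec4d, and Clec4a1 was lowest, at the 19.0th percentile. In CD44+/+ AMs the ranges of Clec4a2 and Clec4e overlapped, as did those of Clec4e and Clec12a and those of Clec12a and Clec4d. Clec7a, Clec4n and Mrc1 together held 81.7% to 83.1% of the summed FPKM of the 10 genes in the CD44+/+ samples and 84.2% to 84.8% in the CD44-/- samples. The order of the CD44-/- means differed from this in the place of Ly75, which fell below Clec4a2, and of Clec4e, which fell below Clec12a.

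**Figure D1:**
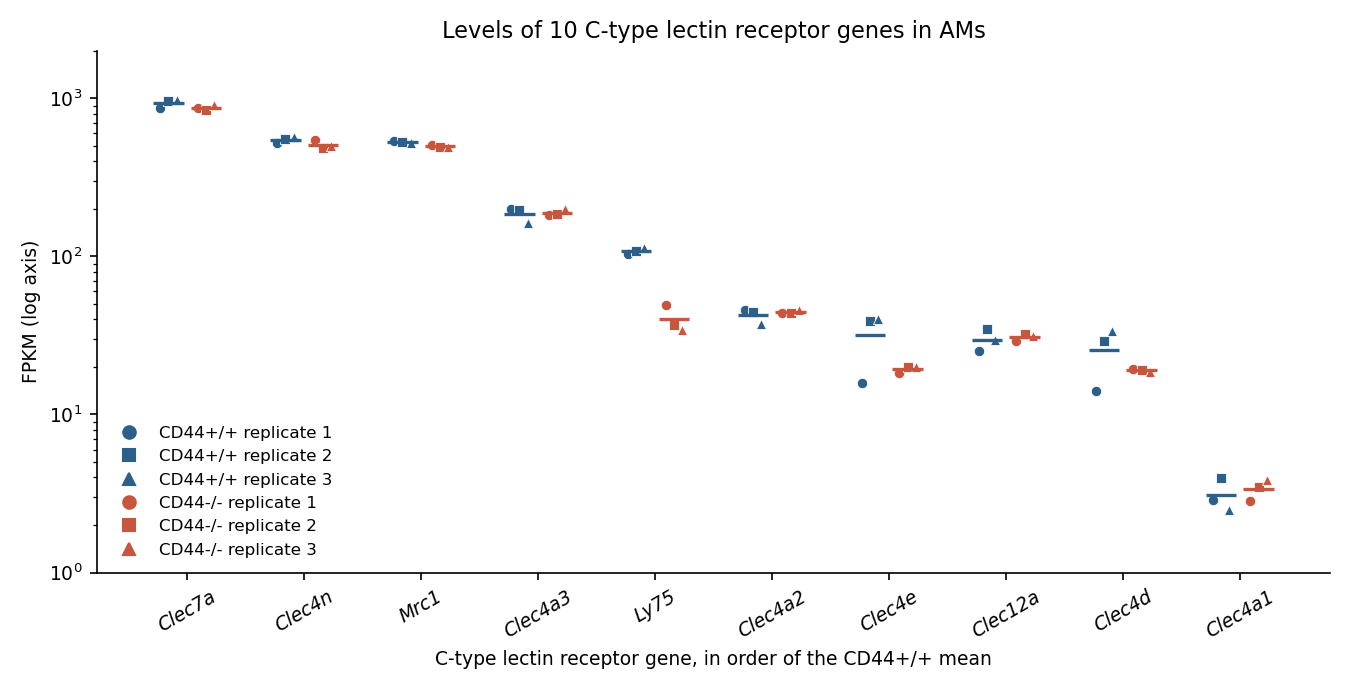
FPKM of the 10 genes on a log axis, with 1 point for each of the 3 samples per genotype and a line at each genotype's mean. Clec7a lies highest and Clec4a1 lowest in both genotypes, and the points of Ly75 separate by genotype.

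Between the genotypes, 12 of all 10800 genes tested or 0.111% had an adjusted p under 0.05 in the limma fit over all samples, 0.0741% as higher and 0.037% as lower in CD44-/- AMs. Nothing is read from the place of Ly75 among them, since it was chosen for that difference, and it was not among the genes called with no filter on low values. Of the other 9 members, 0 passed and 0 had an unadjusted p under 0.05 by limma, beside 7.69% of all genes tested, with adjusted p-values from 0.735 to 0.986. Their log2 fold changes (CD44-/- over CD44+/+, of FPKM + 0.1) lay between -0.59 and 0.13, with a median of -0.08, while the median over all genes tested was 0.01. Among these 9, 4 lay above 0 and 5 below. Of the 9, 1 had no overlap between the genotypes, Mrc1, with all CD44-/- values lower, beside 11.6% of all genes tested (4.88% lower and 6.75% higher).

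Clec7a encodes Dectin-1, the receptor for fungal β-glucan, which signals to Syk through its own tail. It lies on the minus strand at chr6:129461591-129472779. It was at 872, 963 and 970 FPKM in the CD44+/+ samples and 869, 843 and 901 FPKM in the CD44-/- samples. Of the CD44+/+ samples, replicate 1 sat among the CD44-/- values while replicates 2 and 3 sat above them. The mean was 935 ± 54.4 (SD, n = 3) FPKM in CD44+/+ and 871 ± 29.4 (SD, n = 3) FPKM in CD44-/- AMs. This gave a log2 fold change of -0.10 with a 95% interval from -0.24 to 0.03 (adjusted p = 0.799, limma).

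Clec4n, at chr6:123229843-123247024 on the plus strand, encodes Dectin-2, which binds mannans and pairs with FcRγ. It was at 520, 552 and 571 FPKM in the CD44+/+ samples and at 546, 483 and 502 FPKM in the CD44-/- samples. The groups overlapped, with the lowest CD44+/+ value between the values of the CD44-/- samples. Means were 548 ± 25.4 (SD, n = 3) and 510.5 ± 31.8 (SD, n = 3) FPKM, and the log2 fold change was -0.10 (95% interval -0.24 to 0.04, adjusted p = 0.809).

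Clec4e and Clec4d are neighbours on chromosome 6, 6.52 kb apart, and encode Mincle and MCL. Mincle recognizes mycobacterial glycolipid and a protein released by dying cells, and MCL binds such glycolipid and forms complexes with Mincle. Clec4e lies at chr6:123281789-123289871 on the minus strand and Clec4d at chr6:123262107-123275268 on the plus strand. The 250 bases before the start of each gene are printed from RefSeq (GRCm38.p6), 5′ to 3′ on the gene's own strand, because these are the members whose values varied most between samples of 1 genotype. The Clec4e window is chr6:123289872-123290121 (minus strand) and the Clec4d window is chr6:123261857-123262106 (plus strand). Capitals mark GAGGAA, the core bound by the macrophage factor PU.1, or its reverse complement TTCCTC.
Clec4e: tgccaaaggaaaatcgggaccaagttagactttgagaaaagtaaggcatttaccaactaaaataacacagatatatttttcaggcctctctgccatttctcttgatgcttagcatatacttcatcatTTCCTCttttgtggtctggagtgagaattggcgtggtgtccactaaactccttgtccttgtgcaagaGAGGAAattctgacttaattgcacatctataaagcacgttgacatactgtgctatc
Clec4d: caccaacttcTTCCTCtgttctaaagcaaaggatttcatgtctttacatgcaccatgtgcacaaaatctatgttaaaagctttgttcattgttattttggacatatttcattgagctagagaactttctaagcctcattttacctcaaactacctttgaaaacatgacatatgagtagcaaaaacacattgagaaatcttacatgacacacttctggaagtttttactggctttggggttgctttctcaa

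The Clec4e window held this word 56 and 123 bases before the start, and the Clec4d window held it 240 bases before the start. Of the 9 members with a RefSeq window, 6 held it on either strand, beside 23.3% of all 32851 windows of the same length. The AP-1 motif TGANTCA was found in 1 of the 9, Clec12a (6.75% of all windows). TATAAA was found in 2, Clec4e and Clec4a2 (12.4% of all windows). Both strands were searched for each word, and the first listed window was used for the 2 genes with more than 1, Clec7a and Clec4a3. A match describes the letters only.

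Clec4e was at 15.9, 38.9 and 40.2 FPKM in CD44+/+ replicates 1, 2 and 3 and at 18.3, 20.0 and 19.9 FPKM in the CD44-/- samples. Clec4d was at 14.1, 29.0 and 33.5 FPKM and at 19.3, 19.1 and 18.6 FPKM in the same order. For both genes CD44+/+ replicates 2 and 3 stood above every CD44-/- sample, and CD44+/+ replicate 1 stood below every CD44-/- sample. The coefficient of variation of Clec4e was 43.2% in CD44+/+ and 4.92% in CD44-/- AMs, and that of Clec4d was 39.7% and 2.12%.

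The mean of Clec4e was 31.7 ± 13.7 (SD, n = 3) FPKM in CD44+/+ and 19.4 ± 0.954 (SD, n = 3) FPKM in CD44-/- AMs. Its log2 fold change of -0.59 (95% interval -1.28 to 0.11) did not pass the test (adjusted p = 0.735). The mean of Clec4d was 25.6 ± 10.2 (SD, n = 3) and 19.0 ± 0.404 (SD, n = 3) FPKM, with a log2 fold change of -0.33 (95% interval -0.94 to 0.28, adjusted p = 0.897).

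A single library decided the result for both genes. Without CD44+/+ replicate 1 the log2 fold change of Clec4e was -1.02 ± 0.06 (SE, 95% interval -1.17 to -0.88) with an adjusted p of 0.00135. For Clec4d it was -0.71 ± 0.07 (SE, 95% interval -0.88 to -0.54) with an adjusted p of 0.0146. Without CD44+/+ replicate 2 or 3 the log2 fold change was -0.38 or -0.36 for Clec4e and -0.19 or -0.09 for Clec4d. Under the other alternatives the adjusted p ranged from 0.481 to 1 for Clec4e and from 0.726 to 1 for Clec4d. Without that library 36 genes or 0.333% of all genes tested passed the threshold, and besides Ly75, which was selected on its difference, 2 of them were members, Clec4e and Clec4d. Within a sample the ratio of Clec4e to Clec4d was 1.13, 1.34 and 1.20 in the CD44+/+ samples, against 0.946, 1.04 and 1.07 in the CD44-/- samples, so that every CD44+/+ sample had the higher ratio.

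Some genes of the neutrophil marker list, S100a8, S100a9 and Retnlg, were also lowest in CD44+/+ replicate 1 among the CD44+/+ samples, and they were named after their values were seen. S100a8, which encodes a calcium-binding protein abundant in neutrophils, was at 17.2, 45.0 and 35.1 FPKM in CD44+/+ replicates 1, 2 and 3, and at 26.5 to 30.2 FPKM in the CD44-/- samples. S100a9, its partner, was at 0.493, 18.9 and 15.8 FPKM, and at 1.80, 4.20 and 2.31 FPKM in the CD44-/- samples. Retnlg was at 0.128, 1.02 and 1.54 FPKM, and at 0 to 0.708 FPKM in the CD44-/- samples. Relative to replicate 1, replicate 2 of the CD44+/+ samples was 2.45-fold higher for Clec4e, 2.05-fold for Clec4d, 2.62-fold for S100a8 and 38.4-fold for S100a9. Other genes of that list did not share this order. Mmp8 was at 29.0, 22.6 and 22.3 FPKM in CD44+/+ replicates 1, 2 and 3, Cxcr2 at 3.97, 2.62 and 3.71 FPKM and Csf3r at 11.8, 11.9 and 9.32 FPKM. In the CD44-/- samples Mmp8 was at 28.9, 27.3 and 34.8 FPKM and Cxcr2 at 4.56, 3.88 and 4.30 FPKM. Csf3r was at 13.0, 15.4 and 13.0 FPKM there. The means of these genes were higher in CD44-/- AMs, with no overlap for Csf3r, beside 11.6% of all genes tested. The granule genes Mpo, Elane, Ngp and Camp were at 0 in all 6 samples. The list, with 10 of its 11 genes in the table, summed to between 62.6 and 102 FPKM in the CD44+/+ samples and to between 74.7 and 84.9 FPKM in the CD44-/- samples. Their part in the result for Clec4e and Clec4d was not tested.

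**Figure D2:**
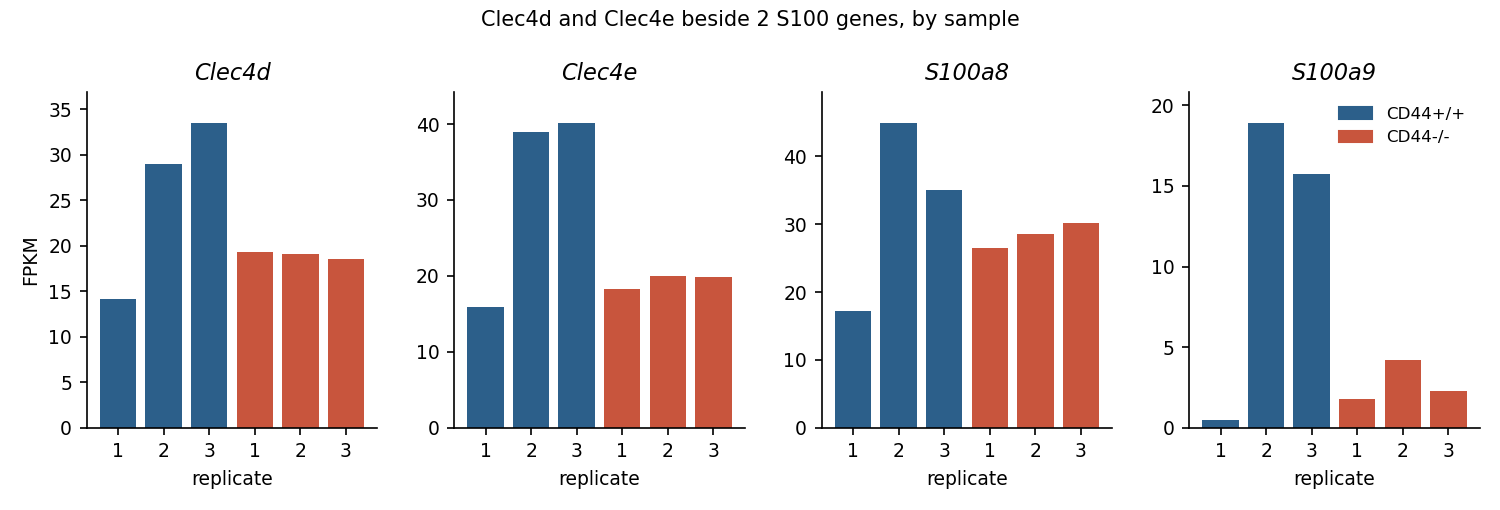
FPKM of Clec4d, Clec4e, S100a8 and S100a9, 1 panel and linear axis per gene, with 1 bar for each replicate of the CD44+/+ (blue) and CD44-/- (red) AMs. In each panel the bar of CD44+/+ replicate 1 is the lowest of the 6, and those of CD44+/+ replicates 2 and 3 are the highest.

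The inhibitory receptor DCIR is encoded by Clec4a2, and Clec4a1 and Clec4a3 are its relatives in the same cluster. Clec4a3 (chr6:122952515-122969878) was at 200.2, 197 and 162 FPKM in the CD44+/+ samples and at 183, 186 and 199.7 FPKM in the CD44-/- samples. Clec4a2 (chr6:123122690-123143999) was at 45.8, 44.7 and 37.6 FPKM and at 44.0, 43.8 and 45.8 FPKM. Clec4a1 (chr6:122921848-122934619) was at 2.86, 3.97 and 2.49 FPKM and at 2.82, 3.49 and 3.84 FPKM. For all 3 genes the lowest of the 6 samples was CD44+/+ replicate 3, and the groups overlapped.

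The log2 fold changes were small beside their errors. For Clec4a3 it was 0.03 (95% interval -0.16 to 0.22, adjusted p = 0.986), from 186 ± 21.0 (SD, n = 3) to 189 ± 9.15 (SD, n = 3) FPKM. For Clec4a2 it was 0.07 (95% interval -0.11 to 0.24, adjusted p = 0.956), and for Clec4a1 it was 0.13 (95% interval -0.28 to 0.55, adjusted p = 0.966). The interval of Clec4a1, the member with the lowest level, was the widest of the 3. Without CD44+/+ replicate 3 all 3 fold changes turned slightly negative. Of the 42-base words of the Clec4a2 transcripts in GENCODE vM21, 8.09% also occur in transcripts of other genes, 4.15% in those of its relative Clec4a4, so a small part of its reads could have been assigned to either. No such word of Clec4d, Clec4e, Clec7a, Clec4a1, Clec4a3 or Mrc1 is shared with another gene.

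Clec12a encodes MICL, an inhibitory receptor that senses uric acid crystals of dead cells, and lies at chr6:129350244-129365303 (plus strand). It is 96.3 kb from Clec7a, while the 6 Clec4 members lie within 368 kb, 6.06 Mb away. It was at 25.3, 34.6 and 29.4 FPKM in the CD44+/+ samples and at 29.0, 32.5 and 31.4 FPKM in the CD44-/- samples. All CD44-/- values fell inside the range of the CD44+/+ values. The log2 fold change was 0.07 (95% interval -0.18 to 0.31, adjusted p = 0.970) and turned to -0.044 without CD44+/+ replicate 1.

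Mrc1 and Ly75 belong to the mannose receptor family and both take up cargo from outside the cell. Mrc1 (CD206) clears glycoproteins with exposed mannose, and Ly75 (DEC-205), best known on dendritic cells, delivers antigen for presentation. Both genes are on chromosome 2, 46.0 Mb apart, Mrc1 at chr2:14229414-14332023 on the plus strand and Ly75 at chr2:60293760-60383231 on the minus strand. Cd44 lies 42.4 Mb from Ly75 on the same chromosome. The 250 bases before the start of each are printed from RefSeq (GRCm38.p6), on the gene's own strand. They show how far these relatives differ in CpG content. The Ly75 window is chr2:60383274-60383523 and the Mrc1 window is chr2:14229164-14229413, and capitals mark each CG.
Ly75: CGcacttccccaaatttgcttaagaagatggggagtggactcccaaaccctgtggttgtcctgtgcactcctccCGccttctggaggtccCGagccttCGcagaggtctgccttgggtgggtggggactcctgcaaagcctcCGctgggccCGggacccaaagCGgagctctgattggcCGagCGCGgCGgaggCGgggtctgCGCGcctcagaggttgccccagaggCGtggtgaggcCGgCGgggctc
Mrc1: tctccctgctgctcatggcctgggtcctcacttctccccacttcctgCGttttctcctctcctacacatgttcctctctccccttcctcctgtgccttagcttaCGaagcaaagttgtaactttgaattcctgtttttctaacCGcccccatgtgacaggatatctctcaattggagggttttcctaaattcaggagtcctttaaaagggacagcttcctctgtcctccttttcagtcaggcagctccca

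The Ly75 window held 17 CpG and 66.8% G or C, and the Mrc1 window held 3 CpG. Other members held from 0 (Clec4d) to 5 (Clec7a). Over all 32851 windows the median was 6 CpG, with quartiles of 2 and 16, and the median share of G or C was 52.4%. GAGGAA or its reverse complement was absent from the Ly75 window and was found 3 times in the Mrc1 window.

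Mrc1 was at 535, 528 and 524 FPKM in the CD44+/+ samples and at 510, 493 and 495 FPKM in the CD44-/- samples. Every CD44-/- sample lay below every CD44+/+ sample, and the replicates of each genotype lay close together. The mean of 529 ± 5.57 (SD, n = 3) FPKM was set against 499 ± 9.29 (SD, n = 3) FPKM, which is 94.4% of it. The log2 fold change of -0.08 (95% interval -0.18 to 0.02) did not pass the test (adjusted p = 0.748). After quantile normalization the groups overlapped and the log2 fold change was -0.05. By flow cytometry the study reported slightly more CD206 on the surface of CD44-/- AMs, which measures protein and not RNA.

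Ly75 was at 104, 108 and 113 FPKM in the CD44+/+ samples and at 49.0, 36.8 and 34.4 FPKM in the CD44-/- samples. The groups did not overlap, and CD44-/- replicate 1 was the highest of its group. Without CD44 the mean was 37.0% of that in CD44+/+ AMs, with a log2 difference of -1.45 that ran from -1.60 to -1.35 when each sample was left out in turn. Within a sample Mrc1 exceeded Ly75 by 5.14, 4.89 and 4.64-fold in the CD44+/+ samples, against 10.4, 13.4 and 14.4-fold in the CD44-/- samples. Ly75 ranked the 5th of the 10 genes by level in the CD44+/+ samples and in CD44-/- replicate 1, and the 6th in CD44-/- replicates 2 and 3, where it fell below Clec4a2. Of the 42-base words of Ly75, 2.42% are shared, all with Gm13571.

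**Figure D3:**
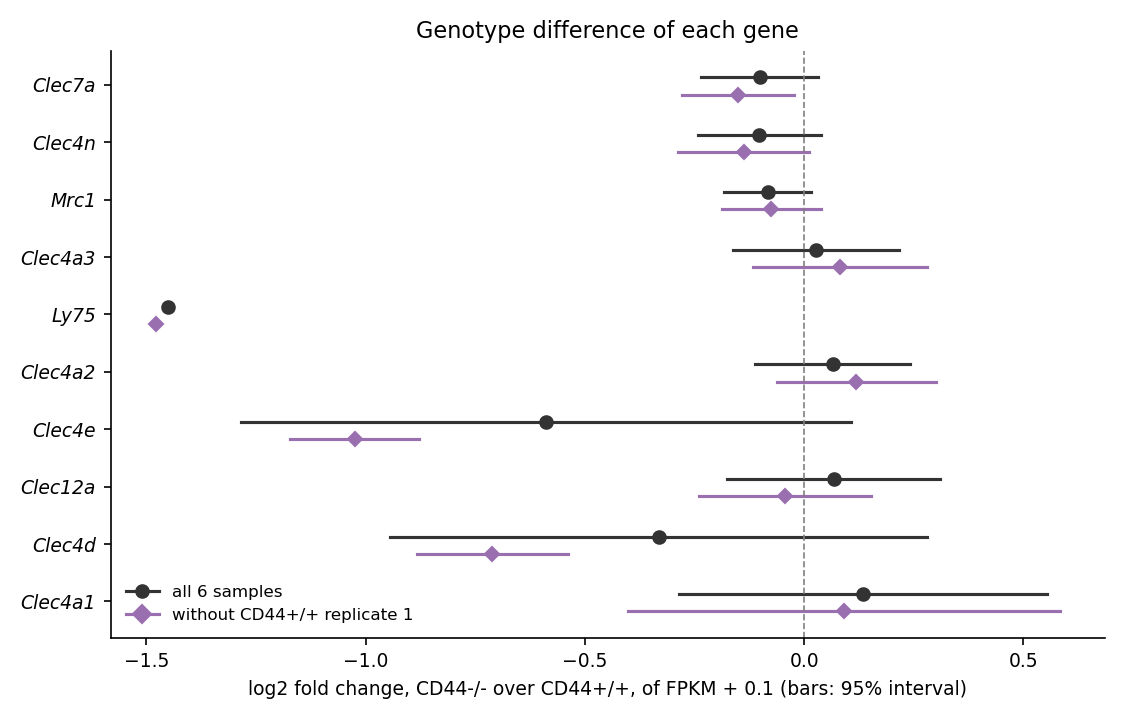
Log2 fold change of FPKM + 0.1, CD44-/- over CD44+/+, for the 10 genes, with 95% intervals for all but Ly75 (shown as a description), from all 6 samples (circles) and without CD44+/+ replicate 1 (diamonds). The intervals of Clec4e and Clec4d reach above 0 with all samples and stay below 0 without that replicate.

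The other relatives in the mannose receptor family were near 0. Mrc2 did not exceed 0.00905 FPKM in any sample, and Pla2r1 was above 0 in 1 sample, at 0.0179 FPKM. Cd302, a small lectin gene 9.28 kb from Ly75, was at 248, 263 and 244 FPKM in the CD44+/+ samples and at 265, 266 and 271 FPKM in the CD44-/- samples. All its CD44-/- values were the higher ones, the opposite side from Ly75, but the log2 fold change of 0.09 (95% interval -0.02 to 0.20) did not pass the test (adjusted p = 0.727). The ratio of Cd302 to Ly75 was 2.38, 2.43 and 2.16 in the CD44+/+ samples, against 5.42, 7.24 and 7.89 in the CD44-/- samples.

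Within 1 Mb of Ly75 the table holds 13 other genes, 7 of which were tested. Tanc1, which encodes a scaffold protein, was at 1.03, 1.32 and 1.39 FPKM in the CD44+/+ samples and at 2.60, 3.51 and 3.63 FPKM in the CD44-/- samples, with no overlap. It rose with a log2 fold change of 1.31 ± 0.18 (SE, n = 3 per genotype, adjusted p = 0.0475) and was the only one of the 7 that passed, 447547 bases from Ly75. Its adjusted p ranged from 0.0261 to 0.507 over the alternatives, and the call was lost under 9 of them, among them a filter at 1 FPKM, quantile normalization and leaving out any 1 of 4 samples. Wdsub1 (log2 fold change 0.31, adjusted p = 0.310) was higher and Rbms1 (-0.12, adjusted p = 0.678) lower in every CD44-/- sample without passing. The nearest tested gene besides Cd302 was March7, at 21.3 FPKM on average in CD44+/+ and 18.2 FPKM in CD44-/- AMs, with overlap. With Tanc1, Wdsub1, Cd302 and Rbms1, 4 of 7 had no overlap, beside 11.6% of all genes tested. In a window of 5 Mb, 1 of 15 genes tested passed, and it was again Tanc1.

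**Figure D4:**
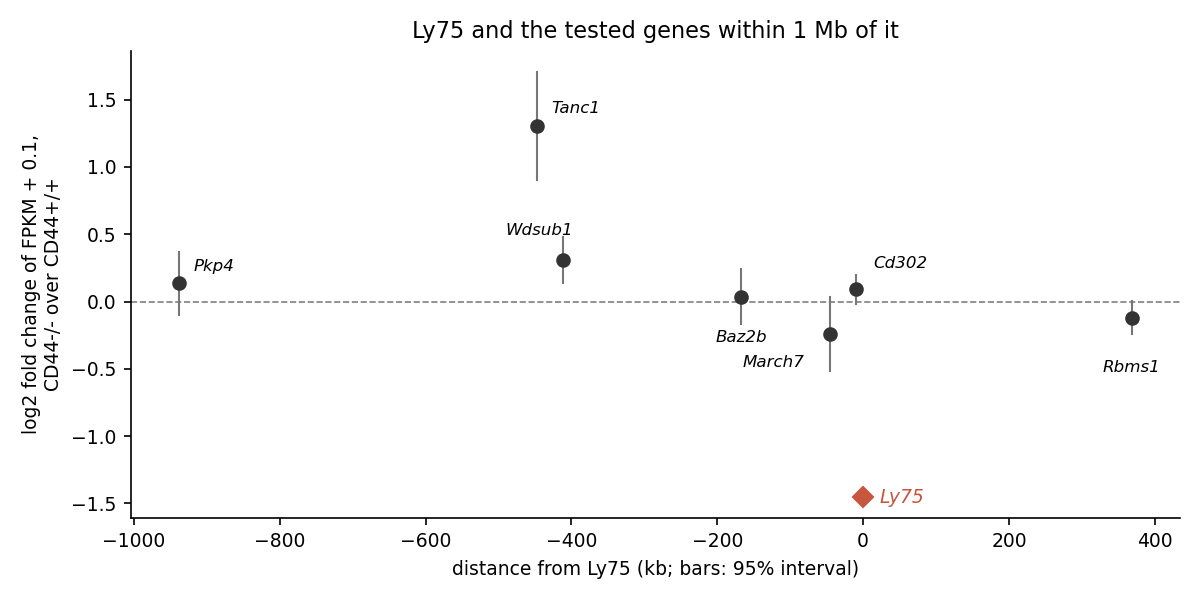
Log2 fold change of FPKM + 0.1 against the distance from Ly75 in kb for the 7 genes tested within 1 Mb, with 95% intervals, and Ly75 itself without one. Ly75 lies at -1.45, Cd302 beside it at 0.09 and Tanc1 at 1.31.

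The profile of Ly75 over the 6 samples was compared with that of every gene tested, by the root mean square distance between log2(FPKM + 0.1) values centred per gene. The closest were Plin1 (0.285), Atf5 (0.311), Nck2 (0.316), 2810002D19Rik (0.342) and Mnda (0.368), and the median over all genes was 0.754. Plin1 coats lipid droplets, and was at 2.78, 2.53 and 2.66 FPKM in the CD44+/+ samples and 1.78, 1.21 and 1.21 FPKM in the CD44-/- samples. Atf5, a stress-responsive transcription factor, was at 19.5, 22.0 and 21.9 FPKM and at 11.4, 10.8 and 11.4 FPKM. Both genes had lower values in every CD44-/- sample, as the choice by likeness entails. The other 9 members lay at distances from 0.624 (Clec4e) to 0.866 (Clec4a1).

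Signalling genes downstream of these receptors were taken as a list of 22, all tested. By limma 0 passed the test and 1 had an unadjusted p under 0.05, beside 831 or 7.69% of all genes tested. It was the kinase gene Src (log2 fold change 0.75, adjusted p = 0.524), named after its values were seen. The list had 8 values above 0 and 14 below, with a median log2 fold change of -0.03. Its most abundant genes were the adaptors, with Tyrobp (DAP12) at 1680, 1740 and 1710 FPKM in the CD44+/+ samples and 1760, 1660 and 1830 FPKM in the CD44-/- samples. Fcer1g, on which Dectin-2, Mincle and MCL depend, was at 898, 967 and 902 FPKM and at 940, 897 and 1000 FPKM. Its groups overlapped, with a log2 fold change of 0.04 (adjusted p = 0.971). The phosphatase gene Ptpn6 (218 FPKM in CD44+/+ and 211 FPKM in CD44-/- AMs on average) and the kinase gene Lyn (151 and 144 FPKM) followed, both with overlap. The only one of the 22 with no overlap, beside 11.6% of all genes tested, was Plcg2, a phospholipase that acts after Syk, at 76.3 and 73.2 FPKM on average (log2 fold change -0.06, adjusted p = 0.886).

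Of 56 other C-type lectin genes and close partners in the table, 19 were tested, 14 were at 0 in all samples, and none of the 37 under the filter exceeded 0.731 FPKM in any sample. By limma 0 passed the test and 3 of the 19 had an unadjusted p under 0.05, beside 7.69% of all genes tested, namely Olr1, Clec4a4 and Clec1b, the last named after its values were seen. Olr1, the receptor for oxidized low-density lipoprotein, was at 166, 190 and 186 FPKM in the CD44+/+ samples and at 146, 145 and 143 FPKM in the CD44-/- samples. Its groups did not overlap, and its log2 fold change of -0.32 ± 0.06 (SE, n = 3 per genotype) did not pass (adjusted p = 0.157). It passed without CD44+/+ replicate 1 (adjusted p = 0.0277), the library that also decided Clec4e and Clec4d, and ranged from 0.102 to 0.697 under the other alternatives. Clec4a4, the relative that shares words with Clec4a2, was at 0.342, 0.420 and 0.365 FPKM and at 0.634, 0.472 and 0.936 FPKM, with no overlap (log2 fold change 0.67, adjusted p = 0.645). Clec1b, which encodes CLEC-2, had a log2 fold change of 0.61 with overlap (adjusted p = 0.574). After Cd302 and Olr1 the highest levels were those of Selplg, the selectin ligand, with means of 137 and 150 FPKM, and of Clec2d, with means of 87.5 and 89.4 FPKM.

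The cell type was checked by markers. Of the AM list, 11 of 13 genes were in the table and were high in every sample, with sums from 14527 to 16936 FPKM in the CD44+/+ samples and from 13717 to 17792 FPKM in the CD44-/- samples. Dendritic cell markers, the cells for which Ly75 is best known, summed to between 16.3 and 20.7 FPKM and to between 15.8 and 21.1 FPKM. Of these 11 genes 8 were under 1 FPKM in all samples, Flt3 (0.200 to 0.499 FPKM, named after its values were seen) among them, and Batf3 had the highest mean, at 11.7 FPKM. The level of Ly75 in every sample exceeded the sum of that list, whose largest part was Batf3. The sums of both genotypes covered nearly the same range. Among the CD44-/- samples, Ccr7 was highest in replicate 1 (7.01 FPKM, against 2.82 and 2.80 FPKM in replicates 2 and 3), as was Ly75. Flt3, Zbtb46, Xcr1, Itgae, Clec9a and Kmo shared this, while Batf3, Cd209a, Cd207 and Siglech did not. Those other than Batf3 were named after their values were seen. The part of dendritic cells in the values of Ly75 was not tested. Monocyte and interstitial macrophage markers summed to between 28.8 and 31.0 FPKM in the CD44+/+ samples and to between 34.4 and 35.9 FPKM in the CD44-/- samples. Lymphocyte markers, 10 of 11 in the table, summed to between 279 and 313 and to between 295 and 317 FPKM, most of it Cd2, and 7 were under 1 FPKM in all samples. Epithelial markers summed to between 543 and 822 and to between 518 and 712 FPKM, most of it Scgb1a1, an airway secretory gene. Genes of that list differed in direction, none passed the test, and those given here were named after their values were seen. Scgb1a1 (log2 fold change -0.35), Scgb3a2 (-0.39), Cdh1 (-0.28) and Abca3 of alveolar type 2 cells (-0.04) were below 0, all with overlap. Sftpb was at 2.13, 1.26 and 1.48 FPKM in the CD44+/+ samples and at 3.80, 2.32 and 6.53 FPKM in the CD44-/- samples, with no overlap (log2 fold change 1.24, adjusted p = 0.369). Cldn18 had no overlap either (log2 fold change 0.89, adjusted p = 0.586). The values of Sftpc overlapped, at 15.5, 6.83 and 9.72 FPKM and at 22.8, 12.4 and 74.2 FPKM (log2 fold change 1.44). Sftpa1 (0.82), Epcam (0.53), Krt18 (0.23) and Foxj1 (0.12) were also above 0, all with overlap. No gene of the 6 lists passed the test (0 by limma), and the part of other cells in the members' values was not tested.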

How the data were processed

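RNA of AMs was sequenced in 3 samples per genotype. Per the labels' processing notes of the submitters, reads were aligned with STAR to mm10, and FPKM values were made with Cufflinks and Cuffdiff. The authors deposited these FPKM values, already scaled for depth and transcript length. The authors' columns of group FPKM, fold changes, test statistics, p-values and q-values were not used. In the table, the columns of gene name and position follow another row order than the gene identifiers and values (0 rows match), so positions were looked up by name, with a first base of 1.

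Genes averaging 0.5 FPKM or more were compared on log2(FPKM + 0.1) with limma 3.58.1 in R 4.3.3 (lmFit, eBayes with an intensity trend, two-sided). This fold change understates the change of low genes. Adjustment was by Benjamini-Hochberg over 10800 genes, with calls at an adjusted p under 0.05, and 1 gene with a missing value was left out. The study's Cuffdiff needs reads and was not repeated. The fit was tested on simulated data. The members and all lists were chosen with earlier results of these data known.

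Named genes were the members, Cd44, Mrc2, Pla2r1 and Cd302. From the signalling, other lectin and neighbour lists they were the genes called, up to 4 with the largest change among those without overlap and the 4 with the highest mean. From the marker lists they were the genes at 0 and those needed for the highest level (others from these lists were named after their values were seen), and the 5 genes most like Ly75 were added.

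Replicate numbers come from the sample titles. Same-numbered samples deviated together from the group means (correlations 0.212, 0.132 and 0.211 over all genes tested) and were treated as pairs in the replicate block only. Alternatives were pseudocounts of 1 and 0.01, a filter at 1 FPKM or none, quantile normalization or median-ratio scaling, eBayes robust or with no trend, the block, and leaving out each sample. Promoter windows are from RefSeq (GRCm38.p6), of which the 250 bases before the start were used. Transcripts are from GENCODE vM21, cut into words of 42 bases. Clec4n had no window.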

Additional observations from a re-analysis of the deposited data

How the results depend on the processing

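The log2 fold change of each member was recomputed under 15 alternatives. For the 9 members other than Ly75, 128 of 135 values kept direction and side of the threshold. Ly75 kept its direction in all 15. Clec4e (-1.02) and Clec4d (-0.71) passed the threshold without CD44+/+ replicate 1. With each sample left out, Clec4e ran from -1.02 to -0.36 and Clec4d from -0.71 to -0.09. With each sample left out, Clec4a1 ran from -0.0059 to 0.32, Clec4a2 from -0.024 to 0.12, Clec4a3 from -0.070 to 0.081 and Clec12a from -0.044 to 0.18. The sign turned without CD44+/+ replicate 3 for Clec4a1, Clec4a2 and Clec4a3, without CD44-/- replicate 3 for Clec4a3 (-0.012), and without CD44+/+ replicate 1 for Clec12a. The median of the members, -0.09, lay between -0.11 and -0.07 with each sample left out. Members under the threshold numbered 1, but 0 with no filter and 1 to 3 with each sample left out. This count includes Ly75, which was selected on its difference, so nothing is read from its share in it, and without Ly75 it was 0, with 2 (Clec4e and Clec4d) without CD44+/+ replicate 1. Members without overlap numbered 2, beside 11.6% of all genes tested, but 1 after quantile normalization and 2 to 6 with each sample left out. They numbered 6 without CD44+/+ replicate 1, where 30.3% of all genes tested had no overlap. Without any other sample they numbered 2 or 3, beside 17.4% to 23.1% of all genes tested. Ly75 is in these counts too, and without it the count with all samples was 1 (Mrc1). The count of 0 other lectins called became 0 to 1 (Olr1 without CD44+/+ replicate 1), and that of signalling genes stayed 0. Of genes near Ly75, 1 was called (Tanc1), but 0 with a mean of at least 1 FPKM, with no filter, after median-ratio scaling or quantile normalization, or without a trend, and 0 to 1 with each sample left out (0 without CD44+/+ replicate 2 or 3 or CD44-/- replicate 2 or 3). Genes called in all numbered 12, and 6 to 36 with each sample left out (36 without CD44+/+ replicate 1, 7 without CD44+/+ replicate 2, 22 without CD44-/- replicate 1, 6 without CD44-/- replicate 2). With the replicate block 9 genes were called in all, and the block changed no call of a member or of a gene named from the lists. Causes of these changes were not tested. No scaling moved the median of all genes by over 0.1 on the log2 scale. With 3 pools per genotype and unknown depth, small differences such as that of Mrc1 did not pass the test.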

Other observations

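Reg3g, which encodes an antimicrobial lectin of epithelium, was chosen after its values were seen. It was at 30.9, 68.3 and 62.7 FPKM in the CD44+/+ samples and at 89.7, 39.3 and 32.3 FPKM in the CD44-/- samples, so that both genotypes spanned a wide range and overlapped. Clec1b was at 19.0, 18.7 and 35.5 FPKM in the CD44+/+ samples and at 29.2, 39.7 and 39.2 FPKM in the CD44-/- samples, with 1 CD44+/+ sample inside the CD44-/- range.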
